A study of Callithrix jacchus with 71 samples.

Results

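The cells described here are 65 marmoset induced neural stem cell-like cells (iNSLCs), of 71 cells sequenced in all, and they were divided by the reads of a single gene, NEUROG2. A cell was chosen by its deposited NEUROG2 value: 22 iNSLCs had a value above 0 (NEUROG2-positive) and 43 had a value of 0 (NEUROG2-zero). NEUROG2 itself is therefore a description of the division, and the results concern all other genes. The study made iNSLCs as an intermediate on the way from fibroblasts to pluripotent stem cells, and it used single-cell RamDA-seq, which amplifies the total RNA of a single cell along the whole transcript, to look at how unlike early-passage iNSLCs were. None of the remaining cells had a NEUROG2 read: these were 1 fibroblast of the E01F line, 1 iPSC (E01F A-2-2) and 4 cells of the No.40 ESC line.

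Both groups came from the same E01F A2 iNSLC source. The line was derived from dorsal skin fibroblasts of an embryonic marmoset (Callithrix jacchus) with the EP-A episomal vectors, which carry the human genes for LIN28, L-MYC, KLF4, SOX2 and OCT4 together with EGFP and mp53DD, a mutant mouse p53 that blocks the normal protein, and it was kept in NSM, a medium for naive-like stem cells. Early-passage iNSLCs of this line still carried these vectors as a population, and vectors per cell were not measured here. NEUROG2-positive and NEUROG2-zero cells were cells of the same line and culture. The cells were flow-sorted into plates, and the labels give no library or plate for single cells beyond a cell number. All cells were treated as 1 culture, and a division by a measured gene gives no treated and untreated samples. No test between the groups was therefore made. Confidence intervals (CI; exact Clopper-Pearson for shares, exact Poisson for reads, 95%) describe counting error and nothing else, because molecules were not tagged before amplification.

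NEUROG2 encodes a basic helix-loop-helix proneural transcription factor that starts neuron formation in dividing neural progenitors. Proneural factors are known to switch on the Notch ligand DLL1, whose protein activates Notch receptors on neighbouring cells, where HES repressors of the Notch pathway then keep proneural genes low. They also activate a cascade of later factors, among them NEUROD4, NHLH1, INSM1 and HES6, that accompany exit from the cell cycle and the first neuronal genes such as DCX. In mouse neural progenitors NEUROG2 is known to go up and down over hours before a cell commits to neuron formation.

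Among NEUROG2-positive cells the median of NEUROG2 was 5.33 normalized counts and its highest value 36.7, which rested on 164 reads in all. The cells just inside the division were 7 cells with a single NEUROG2 read, at no more than 2.28 normalized counts, and all 7 were numbered 57 or above. In NEUROG2-zero cells 1 read would have been worth 0.482 to 2.84 normalized counts, and the 3 reads that a count of 0 allows would have been worth 1.45 to 8.51. The 2 groups are thus cells with and without a read, and a NEUROG2-zero cell may hold NEUROG2 RNA at the level of many NEUROG2-positive cells.

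Read depth was similar in the 2 groups as a whole. The median depth was 271926 reads on genes in NEUROG2-positive cells (98507 to 642253), against 249829 in NEUROG2-zero cells (82268 to 695241). Detected genes had a median of 11342.5 in NEUROG2-positive and 10640 in NEUROG2-zero cells. Among the 33 iNSLCs at or above the median depth 36.4% had a NEUROG2 read, and among the 32 below it 31.2% did. With at least 2 reads required, the same shares were 30.3% and 15.6%, and the part of depth in the division was not tested. When every cell was thinned to 129629 reads, which 20 NEUROG2-positive and 38 NEUROG2-zero cells reached, 16.5 of the 20 were expected to keep a NEUROG2 read. By cell number, 8 of 27 iNSLCs numbered 56 or below and 14 of 38 numbered 57 or above were NEUROG2-positive, and these 2 sets of cells differed in depth (medians of 357910 and 208746 reads).

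**Figure D1:**
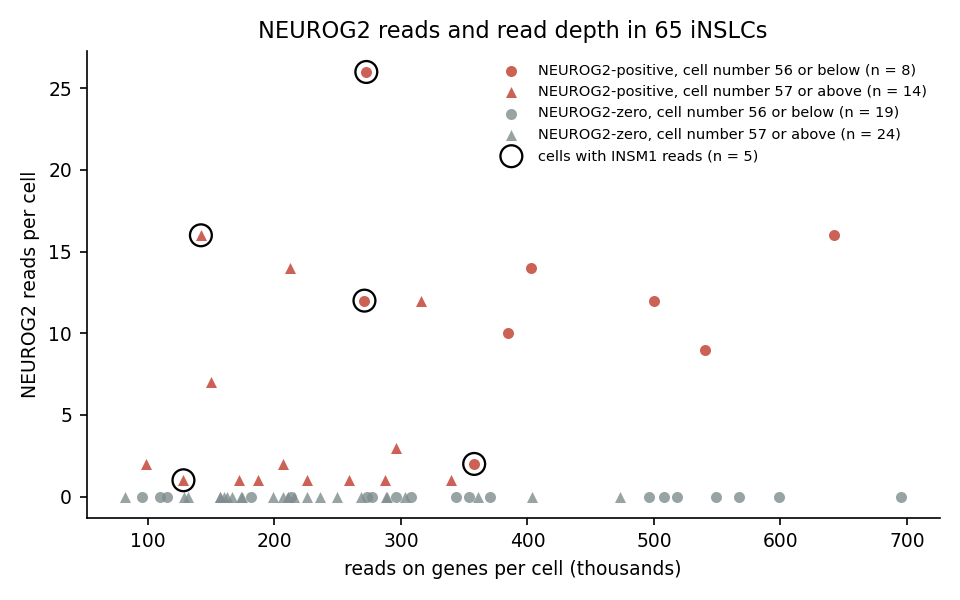
NEUROG2 reads (y axis) against reads on genes per cell (x axis, in kiloreads), with 1 point per iNSLC, coloured by group and shaped by cell number; rings mark the 5 cells with INSM1 reads. NEUROG2-positive cells spread over 98507 to 642253 reads and NEUROG2-zero cells over 82268 to 695241, and the 7 cells with 1 NEUROG2 read are all numbered 57 or above.

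Of 13603 genes whose mean over the iNSLCs was 1 normalized count or more, few differed by a large factor between the groups. Ratios are given as log2 of the mean in NEUROG2-positive cells over the mean in NEUROG2-zero cells after a pseudocount of 1 was added to both, which understates the difference of low genes. By this measure 256 genes (1.88%) were at least 2-fold higher and 184 genes (1.35%) at least 2-fold lower in NEUROG2-positive cells, and the median log2 ratio over all genes was 0.02. Genes past 2-fold were sparsely detected in both directions. The higher genes had reads in a median of 21 iNSLCs and the lower genes in 20.5, against 52 for all genes. The listed neurogenic genes below are read against these shares, which were not matched for detection.

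Proneural factors other than NEUROG2 were higher in NEUROG2-positive cells for 4 of the 6 listed genes with a mean of 1 or more (NEUROD4, NHLH1 and NHLH2 among them), and none of the 6 was at least 2-fold lower. NEUROD4, NHLH1 and NHLH2 had means below 1 in NEUROG2-zero cells and passed the limit on the mean only through NEUROG2-positive cells, so the count was partly fixed by that limit. The median log2 ratio of the proneural factors list was 1.88 over the 6 genes, 0.40 over all listed genes with no limit on the mean, 0.49 with a pseudocount of 10 and 0 with medians over cells in place of means. Of 14 listed genes 12 had a row in the table, and the 6 rows below the mean of 1 included NEUROG1 and NEUROD1.

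The factors that act after the first proneural step were rare. NEUROD4, a later neuronal differentiation factor, was read in 6 NEUROG2-positive and 3 NEUROG2-zero cells, with 113 reads (CI 93.1 to 136) against 12 (CI 6.20 to 21.0). NHLH1, a factor of newly formed neurons, was read in 3 NEUROG2-positive cells and 1 NEUROG2-zero cell, and NHLH2, its close relative, in 3 and 0. NEUROD1 was likewise read in 3 and 1. NEUROG1, the paralogue of NEUROG2, was read in 5 NEUROG2-positive and 2 NEUROG2-zero cells. ATOH7, a proneural factor of retinal ganglion cells, and BHLHE22, a factor of dorsal neurons, did not share this pattern, at log2 ratios of -0.78 and 0.05. Since NHLH1, NHLH2 and NEUROD1 were read in at most 4 cells each, they fall outside the naming rule and were named after their values were seen.

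Among Notch ligands, the Delta-like genes DLL1 and DLL3 had higher means in NEUROG2-positive cells, and the Jagged genes lay within 2-fold over all cells. Of the 4 ligand genes that reached the mean of 1, DLL1 and DLL3 were at least 2-fold higher and none was at least 2-fold lower, with a list median log2 ratio of 1.01. DLL1 had reads in all 65 iNSLCs. It ranged from 2.39 to 1088 with a median of 43.8 in NEUROG2-positive cells, and from 1.16 to 166 with a median of 24.7 in NEUROG2-zero cells. Cells 57 and 25, both NEUROG2-positive, stood above every other iNSLC at 1088 and 645, while the other 20 NEUROG2-positive cells lay within the range of the NEUROG2-zero cells. The mean was 113 ± 254 against 34.5 ± 33.4 (SD over cells), a log2 ratio of 1.69, and without cell 57 the log2 ratio was 0.93.

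DLL3, a Delta-like protein that inhibits Notch within the cell that makes it, ranged from 0 to 405 with a median of 6.43 in NEUROG2-positive cells, and from 0 to 17.3 with a median of 0 in NEUROG2-zero cells. Cell 25 alone held 73.8% of the summed value of the NEUROG2-positive group, and the log2 ratio was 2.85 with it and 1.12 without it. Detection did not rest on that cell: DLL3 was found in 68.2% of NEUROG2-positive cells (CI 45.1% to 86.1%) and 48.8% of NEUROG2-zero cells (CI 33.3% to 64.5%), or in 70.3% and 39.0% at equal depth. DLL4, another Delta-like ligand, had a mean below 1, with 41 reads in 2 NEUROG2-positive cells against 1 read in 1 NEUROG2-zero cell, and was named after its values were seen. JAG1, a ligand of the Jagged type, was read in every iNSLC, at a median of 147 in NEUROG2-positive and 171 in NEUROG2-zero cells, and its log2 ratio was 0.34 over all cells and 1.01 in cells numbered 56 or below, the set that holds cell 27 with the highest value (1822). JAG2 had medians of 23.4 and 44.6 and a log2 ratio of -0.37, which was -1.60 in cells numbered 56 or below (means of 13.9 and 44.4).

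All 4 Notch receptor genes lay within 2-fold, at log2 ratios of -0.04 to 0.17, and NOTCH1 had medians of 331 in NEUROG2-positive and 279 in NEUROG2-zero cells. The 16 modulators of the pathway, which include the ubiquitin ligase MIB1 that ligands need to signal and the sugar transferase LFNG, all lay within 2-fold as well, with a median log2 ratio of 0.21. The highest were NEURL1, a ubiquitin ligase of Notch ligands, and NUMBL, a relative of the Notch inhibitor NUMB, both at 0.94, and both were named after their values were seen. NEURL1 was read in 15 of 22 NEUROG2-positive cells (68.2%) and 14 of 43 NEUROG2-zero cells (32.6%), and NUMBL had medians of 26.2 and 10.8. Of 7 listed Notch target genes 5 reached the mean of 1, and none of the 5 passed 2-fold over all cells. HES5, a repressor that Notch switches on in neural progenitors, ranged from 0 to 74.0 with a median of 6.02 in NEUROG2-positive cells, and from 0 to 162 with a median of 9.47 in NEUROG2-zero cells. Its log2 ratio was -0.88 over all cells, 1.03 in cells numbered 56 or below and -1.70 in cells numbered 57 or above, past 2-fold in each set and in opposite directions. The ratio of 1.03 rested mainly on NEUROG2-positive cells 39 and 42, at 74.0 and 66.4. The other NEUROG2-positive cells of that set had at most 11.9. HES1 was read in 72.7% of NEUROG2-positive cells (CI 49.8% to 89.3%) and in 90.7% of NEUROG2-zero cells (CI 77.9% to 97.4%), or in 69.3% and 80.0% at equal depth, with medians of 7.70 and 7.92. HEY1, a further target with a mean below 1, was read in 1 NEUROG2-positive and 9 NEUROG2-zero cells.

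Among genes known to be activated by proneural factors, several had higher means in NEUROG2-positive cells. Of 18 listed genes 13 reached the mean of 1, and 7 of these were at least 2-fold higher in NEUROG2-positive cells (HES6, GADD45G, INSM1, MYT1, SRRM4, BTBD17 and EYA2), against none at least 2-fold lower. INSM1, MYT1, SRRM4 and EYA2 had means below 1 in NEUROG2-zero cells and passed the limit on the mean only through NEUROG2-positive cells, so this count too was partly fixed by it. The median log2 ratio of proneural factor target genes was about 1.1, and it was 0.81 with no limit on the mean, 0.45 with a pseudocount of 10 and 0 with medians over cells. HES6, a HES relative that opposes HES1 and promotes neuron formation, ranged from 0 to 174 with a median of 5.77 in NEUROG2-positive cells, and from 0 to 23.6 with a median of 1.92 in NEUROG2-zero cells. Its mean was 20.1 ± 38.7 against 5.58 ± 7.10 (SD over cells), a log2 ratio of 1.68, which was 1.07 without cell 57. The shares of cells with a HES6 read were close, at 68.2% and 62.8%.

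SRRM4, a splicing regulator of neurons, was more often detected in NEUROG2-positive cells, in 9 of 22 (40.9%, CI 20.7% to 63.6%) against 4 of 43 (9.30%, CI 2.59% to 22.1%), and had 109 reads (CI 89.5 to 131) against 12 (CI 6.20 to 21.0). GADD45G, a growth arrest gene activated along with neuron formation, was read in 12 NEUROG2-positive and 14 NEUROG2-zero cells, at up to 96.4 against up to 44.8 normalized counts. EYA2 and MYT1 rested on fewer cells: EYA2 was read in 2 cells of each group and had a log2 ratio of -1.08 in cells numbered 57 or above. MFNG, which modifies Notch receptors, and the tubulin gene TUBB2B were higher by less than 2-fold, at log2 ratios of 0.80 and 0.57. BTG2, KIF26A and RND2 lay between -0.10 and 0.19.

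INSM1 had reads in NEUROG2-positive cells and none in NEUROG2-zero cells. It encodes a zinc finger repressor that is made for a short time in progenitors about to become neurons. It was read in 5 of 22 NEUROG2-positive cells (22.7%, CI 7.82% to 45.4%) and in 0 of 43 NEUROG2-zero cells, which allows a share of up to 6.98% by 3 cells of 43 (the exact interval reaches 8.22%). Its mean of 19.5 in NEUROG2-positive cells was 207-fold above a floor of 3 reads over the whole NEUROG2-zero group. That floor counts reads and not cells. Because cells with INSM1 held 13 to 193 reads each, 207-fold is no lower limit on the difference. The 5 cells (25, 27, 40, 57 and 81) had 18.3, 187, 85.7, 29.8 and 109 normalized counts of INSM1, from 13 to 193 reads each. Of the 5, 3 were numbered 56 or below and 2 were numbered 57 or above, and their depths of 128113 to 357910 reads lay within those of the other cells.

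Early neuron genes, which encode cytoskeletal, adhesion and synaptic proteins of young neurons, were spread around a smaller difference. Of 34 listed genes 32 had a row and 28 reached the mean of 1. Of these 28, 7 were at least 2-fold higher in NEUROG2-positive cells (DCX, MAP2, SYP, SNAP25, CNTN2, KLHL35 and ONECUT2), 21 lay within 2-fold and none was at least 2-fold lower. SYP and KLHL35 passed the limit on the mean only through NEUROG2-positive cells. The list median log2 ratio was 0.48. DCX, which binds microtubules in migrating neurons, ranged from 0 to 349 with a median of 12.8 in NEUROG2-positive cells, and from 0 to 88.8 with a median of 7.42 in NEUROG2-zero cells. The DCX values of 4 NEUROG2-positive cells (27, 81, 25 and 40) lay above every NEUROG2-zero cell, and the mean was 46.4 ± 79.8 against 15.5 ± 18.2 (SD over cells), a log2 ratio of 1.53. DCX was nevertheless found in similar shares of cells, 81.8% and 79.1%.

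The same shape held for the adhesion molecule CNTN2, at up to 729 in NEUROG2-positive and up to 104 in NEUROG2-zero cells with medians of 7.98 and 9.45. MAP2, a dendritic microtubule protein, had medians of 14.4 and 9.47 and a log2 ratio of 1.05. SNAP25, a protein of synaptic vesicle release, had a log2 ratio of 1.43. Early neuron genes that were read in 60 or more iNSLCs lay within 2-fold but on both sides of 0, while MAP2 was read in 59. DPYSL3, DPYSL5, NEFL, CD24, NSG1 and DCLK1 had log2 ratios between -0.21 and 0.04. NEFM and INA, neurofilament genes, were at 0.97 and 0.48, TAGLN3 at 0.72, CRMP1 at 0.36 and the adhesion molecule NCAM1 at 0.25. SOX4 and SOX11, transcription factors of young neurons, were at 0.48 and 0.42. Among neuron subtype factors 17 of 27 listed genes had a row and 5 reached the mean of 1, of which LHX5, EBF1 and LBX1 were at least 2-fold higher, LHX5 with a mean below 1 in NEUROG2-zero cells. The median log2 ratio of the neuron subtype factors list was 1.06 over the 5 genes and 0.052 with no limit on the mean. EBF1, a factor of differentiating neurons, was read in 19 of 22 NEUROG2-positive cells (86.4%, CI 65.1% to 97.1%) and 19 of 43 NEUROG2-zero cells (44.2%, CI 29.1% to 60.1%), or in 75.5% and 45.4% at equal depth.

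**Figure D2:**
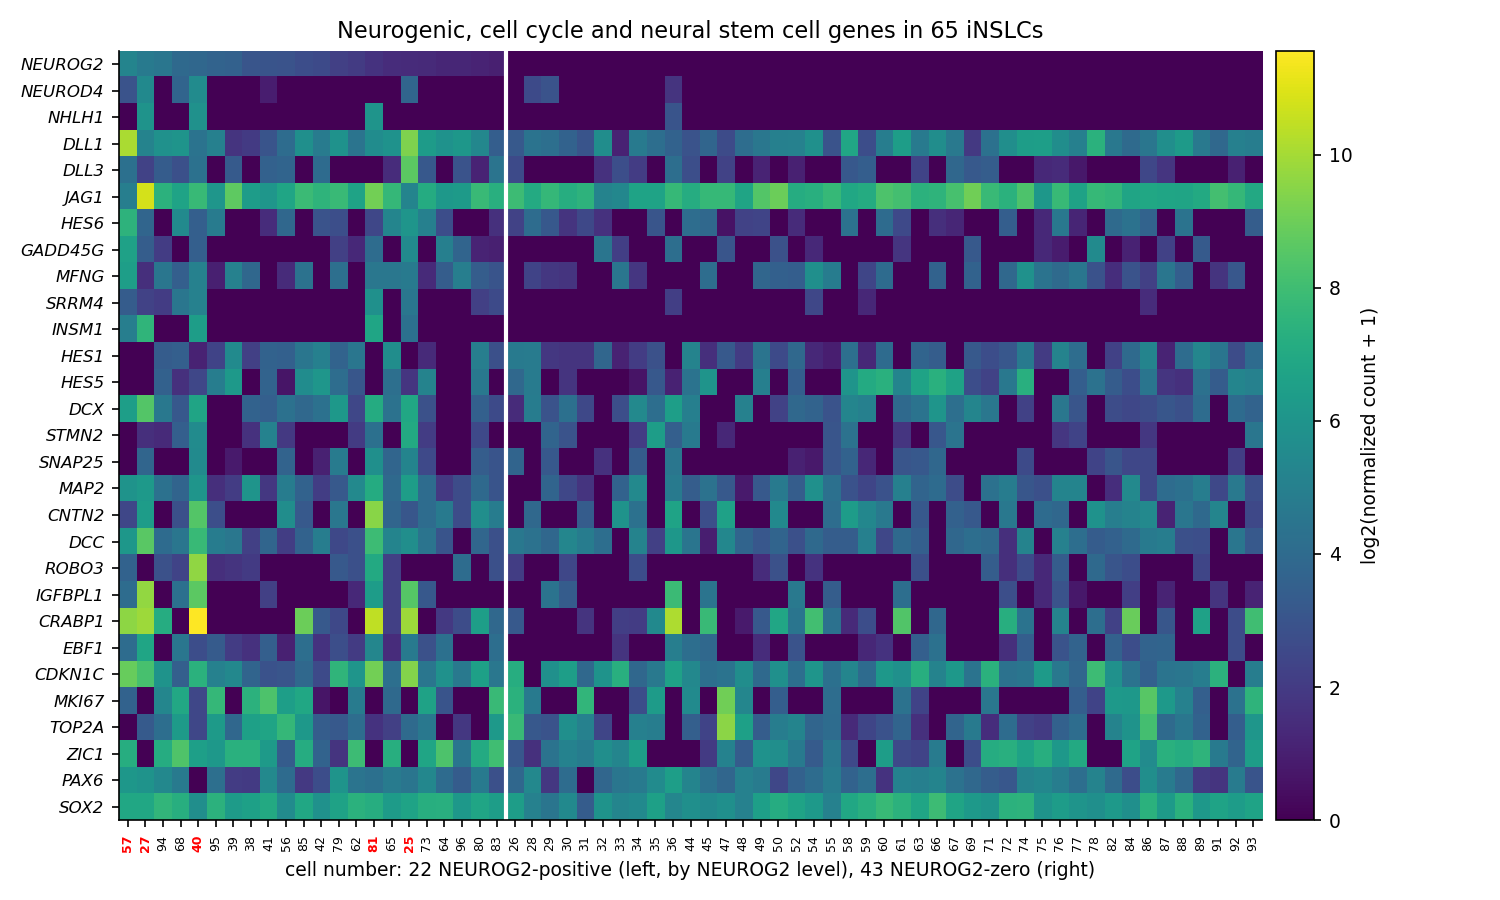
Normalized counts of selected genes (rows, log2 after a pseudocount of 1) in 65 iNSLCs (columns, by cell number), with the 22 NEUROG2-positive cells on the left in order of NEUROG2 and the 43 NEUROG2-zero cells on the right; the 5 cells with INSM1 reads have red labels. The high values of DLL1 lie in cells 57 and 25, and those of NHLH1 and DCC in cells 27, 40 and 81, while cell 36, a NEUROG2-zero cell, also has IGFBPL1 (238) and CRABP1 (1122).

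Much of the summed value of the neurogenic genes in NEUROG2-positive cells lay in the 5 cells with INSM1 reads. These cells were singled out after the values were seen, so their values are a description. Their NEUROG2 values ran from 1.66 to 36.7, against at most 21.9 in the other 17 NEUROG2-positive cells, so the 2 sets overlapped in NEUROG2, and cell 81 had a single NEUROG2 read. Of the summed value of NEUROG2-positive cells, these 5 held 73.7% for DLL1, 81.4% for DLL3, 78.2% for DCX, 83.7% for CNTN2, 89.3% for NEUROD4 and 100% for NHLH1 and NHLH2. Their share of the NEUROG2-positive cells was 22.7%. Part of these genes was also read in single NEUROG2-zero cells. Cell 36 had NHLH1 at 6.92, NEUROD4 at 2.31, DCX at 88.8, CNTN2 at 104 and DCC at 68.1, and no HES1 or MKI67 read. Cell 78 had DLL1 at 166, GADD45G at 44.8 and CDKN1C at 242, and no HES1 read. Neither of these cells had a read of INSM1 or HES6.

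The 5 cells were not alike. Cells 57 and 25 combined high DLL1 (1088 and 645) with HES6 (174 and 64.9) and GADD45G (96.4 and 45.8), and neither had a read of NHLH1. Cells 27, 40 and 81 had NHLH1 at 60.9, 57.5 and 61.5 and DLL1 at 34.8, 20.3 and 47.8, within the range of NEUROG2-zero cells. Cell 27 had the highest JAG1 of all iNSLCs, at 1822, and cell 81 the highest CNTN2, at 729. The Notch target HES1 had 1 read in cell 40 and none in the other 4, and HES5 had 4 reads in cell 40, 3 in cell 25 and none in the other 3.

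The summed level of the 20 cell cycle genes with a row was 296 to 1119 normalized counts in the 5 cells with a median of 417, against a median of 916 in the other 17 NEUROG2-positive cells and 715 in NEUROG2-zero cells. Much of this sum was CCND2, which reached 1006 in the 5 cells. CCND2 had means of 417, 444 and 299 in the 3 sets in the same order, against mean sums of 555, 1098 and 810. The sum is therefore no measure of division by itself. MKI67, a marker of dividing cells, was at 11.5 in cell 57, at 4.51 in cell 40 and at 0 in the other 3. Its median was 39.1 among the other NEUROG2-positive cells and 4.07 among NEUROG2-zero cells, of which 23 of 43 had a read, so such values were common in NEUROG2-zero cells too. CDKN1C, an inhibitor of the cell cycle, was at 165 to 688 in the 5 cells. Its medians were 23.0 in the other NEUROG2-positive cells and 29.0 in NEUROG2-zero cells. The highest values there were 189 and 242, so the sets overlapped. The neural stem cell list was still present, with 19 to 23 of its 23 genes read in each of the 5 cells, and SOX2 was at 51.9 to 146.

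Without the 5 cells, the other 17 NEUROG2-positive cells were close to NEUROG2-zero cells in the neurogenic lists. The list median log2 ratios were then -0.11 for proneural factors, 0.04 for Notch ligands, 0.29 for proneural factor targets and -0.08 for early neuron genes. Ratios of genes that go with INSM1 fall by construction when cells are left out for their INSM1 reads, so the lower medians are no test of the remaining cells. Across all genes 187 (1.37%) were then at least 2-fold higher and 259 (1.9%) at least 2-fold lower. Of the 256 genes that were higher with all cells 104 remained at least 2-fold higher, and of the 184 that were lower 135 remained. SRRM4 (1.26) was among those that remained, and DLL3 was at 0.96. Of these 17 cells only 4 had an SRRM4 read, and cell 68 was at 22.4 against a mean of 2.01. SRRM4 had also passed the limit on the mean only through NEUROG2-positive cells.

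**Figure D3:**
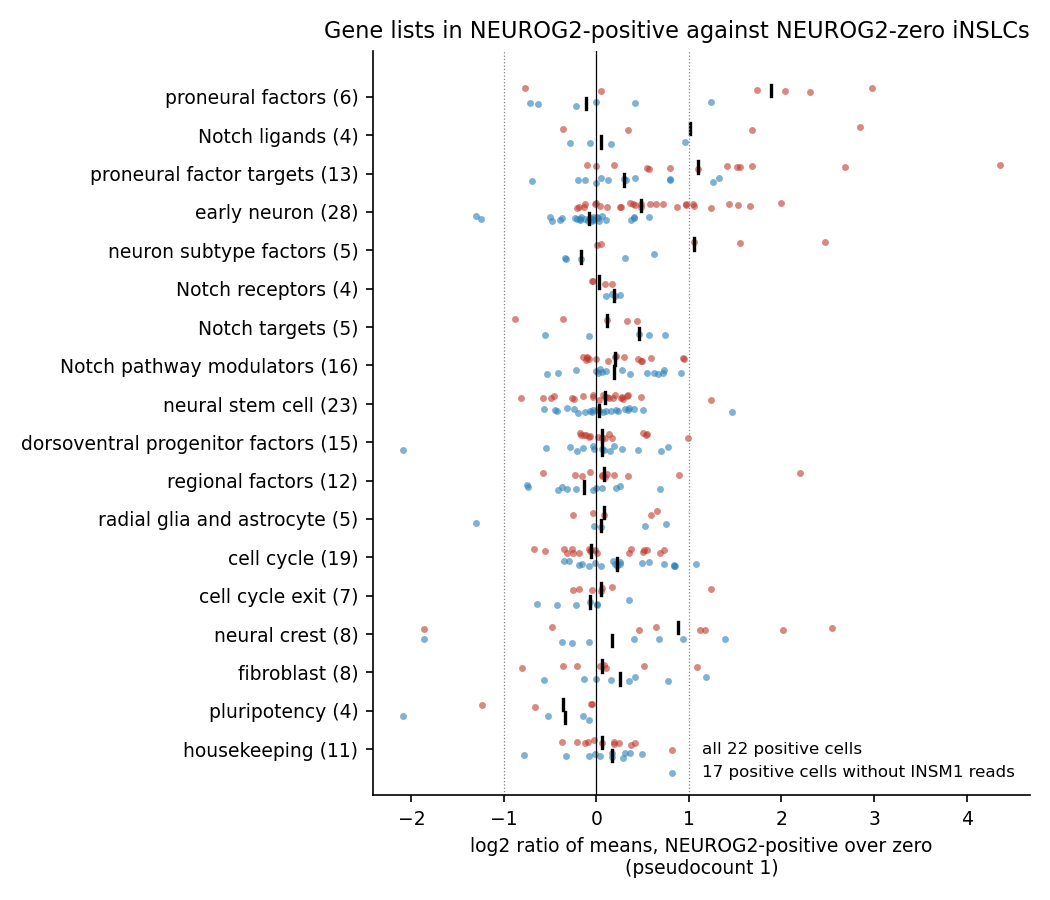
Log2 ratio of means (x axis, NEUROG2-positive over NEUROG2-zero iNSLCs) of each gene by list (rows, genes reaching the mean of 1 counted in brackets, some only through NEUROG2-positive cells), with all 22 NEUROG2-positive cells (red, upper) and with the 17 that have no INSM1 reads (blue, lower); black bars are list medians and dotted lines mark 2-fold. The medians of proneural factors, Notch ligands and proneural factor targets are 1.88, 1.01 and about 1.1 with all cells and -0.11, 0.04 and 0.29 without the 5 cells.

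Across all genes, those with the largest ratios in the same direction in both sets of cell numbers were ranked if their mean was 10 or more and at least 17 iNSLCs had a read. The 10 that were highest in NEUROG2-positive cells included ROBO3, IGFBPL1, DLL3, CRABP1, PHLDA1, NPPC, THSD4, DCC and DLL1, at log2 ratios of 1.69 to 3.92. ROBO3, an axon guidance receptor, ranged from 0 to 805 with a median of 2.63 in NEUROG2-positive cells, and from 0 to 14.5 with a median of 0 in NEUROG2-zero cells. Cell 40 held 80.2% of the summed ROBO3 of NEUROG2-positive cells, and the log2 ratio was 3.92 with it and 1.77 without it. CRABP1, which binds retinoic acid in the cell, ranged from 0 to 3028 with a median of 5.08 in NEUROG2-positive cells, and from 0 to 1122 with a median of 3.69 in NEUROG2-zero cells. All 5 cells with INSM1 reads had CRABP1 at 767 or above, as did NEUROG2-zero cell 36, and the shares of cells with a CRABP1 read were 63.6% and 62.8%. IGFBPL1, a secreted protein of young neurons, had a median of 0 in both groups, and 98.0% of its summed value in NEUROG2-positive cells was in the 5 cells. NPPC, which encodes a natriuretic peptide, had a log2 ratio of 1.91 with all cells and 0.19 without cell 57.

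PHLDA1, a gene induced by growth signals, was spread more widely. It ranged from 0 to 144 with a median of 14.5 in NEUROG2-positive cells, and from 0 to 37.7 with a median of 2.17 in NEUROG2-zero cells. It was read in 20 of 22 NEUROG2-positive cells (90.9%, CI 70.8% to 98.9%) and 26 of 43 NEUROG2-zero cells (60.5%, CI 44.4% to 75.0%), and only 2 NEUROG2-zero cells lay above the median of the NEUROG2-positive cells. The log2 ratio of 2.05 stood at 1.24 without the 5 cells with INSM1 reads. Of the 10 genes, PHLDA1 was among the 2 that stayed at least 2-fold higher without those cells.

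**Figure D4:**
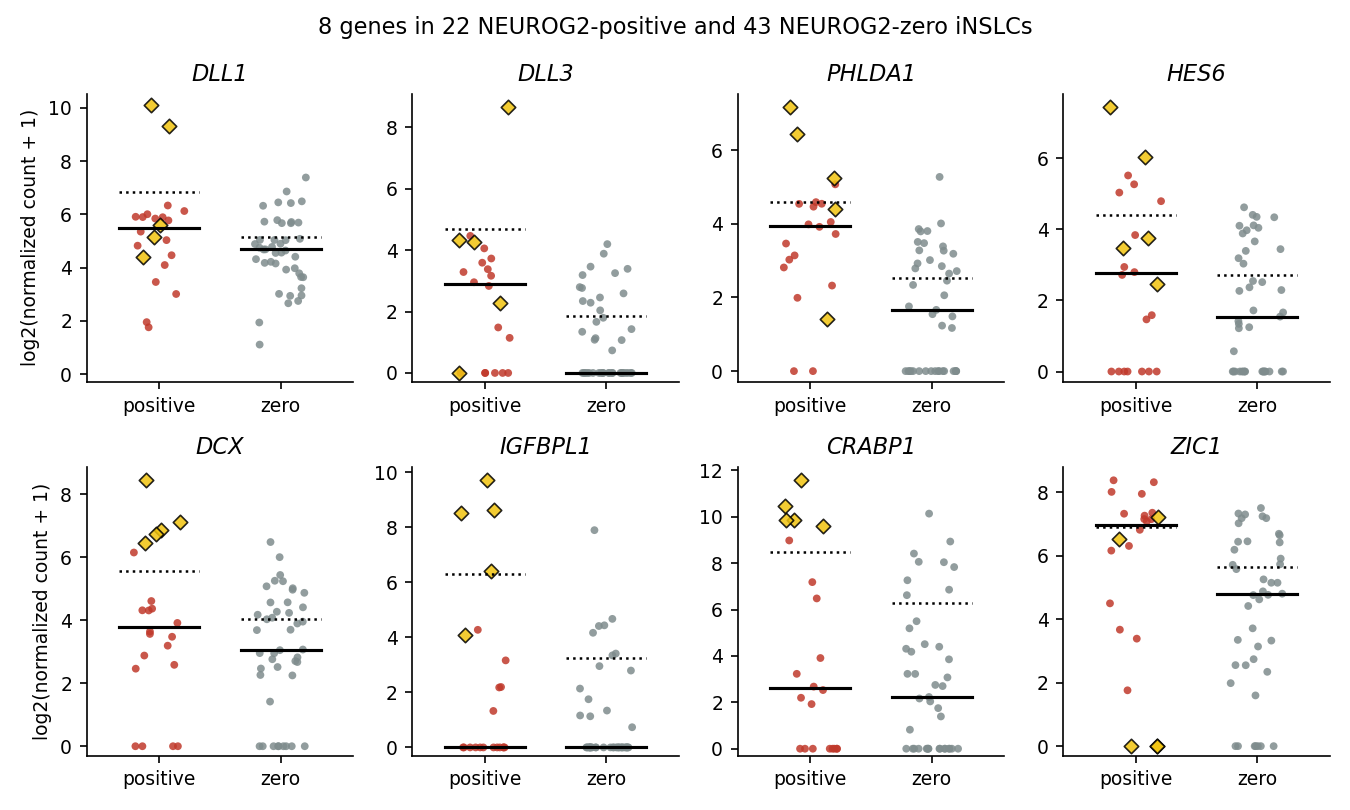
Normalized counts (y axes, log2 after a pseudocount of 1) of 8 genes in 22 NEUROG2-positive (left) and 43 NEUROG2-zero iNSLCs (right), with 1 point per cell; solid bars are medians, dotted bars means, and yellow diamonds the 5 cells with INSM1 reads. The groups overlap for every gene; DLL1 reaches 1088 and 166, and ZIC1 has medians of 123 and 26.9.

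ZIC1, a transcription factor of the dorsal neural tube, was the single gene of the neural stem cell list past 2-fold, and it followed a different course from the neurogenic genes. It ranged from 0 to 331 with a median of 123 in NEUROG2-positive cells, and from 0 to 180 with a median of 26.9 in NEUROG2-zero cells. ZIC1 was read in all 17 NEUROG2-positive cells without INSM1 reads, at a median of 141, and in 2 of the 5 cells with them. Its log2 ratio was 1.23 over all cells, 1.30 in cells numbered 56 or below and about 1.1 in cells numbered 57 or above. It was named after its values were seen. Of this list, 19 to 23 genes were read per NEUROG2-positive cell and 15 to 23 per NEUROG2-zero cell. Reads of such genes do not by themselves set the labelled cell type apart. VIM was at 7161 in the fibroblast but at a mean of 7.18 in ESCs, and NES at a mean of 151 in ESCs but at 6.88 in the fibroblast. All 23 listed genes reached the mean of 1, 22 lay within 2-fold and the median log2 ratio was 0.09. SOX2 and SOX1, which mark neural stem cells, were at 0.33 and 0.28, the intermediate filament genes NES and VIM at 0.34 and 0.29, and SOX9 at -0.82. PAX6, a factor of dorsal and retinal progenitors, was read in 21 of 22 NEUROG2-positive and 42 of 43 NEUROG2-zero cells.

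The 10 genes that were lowest in NEUROG2-positive cells by the same rule were GINM1, CRISPLD2, ACSS1, LRPPRC, APCDD1, RNF207, SCUBE2, SLC38A2, NRIP3 and NFKBIA, at log2 ratios of -1.81 to -1.09. Several rested on a single NEUROG2-zero cell. Cell 33 held 65.7% of the summed GINM1 of NEUROG2-zero cells, cell 75 held 72.8% of APCDD1 and cell 71 held 43.7% of NFKBIA, and without those cells the log2 ratios were -0.41, 0.33 and -0.34. SCUBE2, a secreted protein that helps release Hedgehog from cells, was lower over more cells. It ranged from 0 to 225 with a median of 28.2 in NEUROG2-positive cells, and from 0 to 444 with a median of 103 in NEUROG2-zero cells. The log2 ratio of SCUBE2 was -1.35, with -0.42 in cells numbered 56 or below and -1.98 in cells numbered 57 or above. CRISPLD2, a secreted protein, was read in 45.5% of NEUROG2-positive and 65.1% of NEUROG2-zero cells, and ACSS1, a mitochondrial enzyme that activates acetate, had medians of 7.34 and 25.0.

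Genes ranked by the share of cells with a read, under the same limits, covered other genes. RHOBTB2 and ARHGEF18 were read in 22 of 22 NEUROG2-positive cells (lower limit 84.6%) and in 30 of 43 NEUROG2-zero cells (69.8%, CI 53.9% to 82.8%). At equal depth the shares were 99.7% and 72.2% for RHOBTB2, and 93.1% and 68.0% for ARHGEF18. The differences in share of RHOBTB2 and ARHGEF18 were 57.9 and 47.4 points in cells numbered 56 or below. They were 8.33 and 16.7 points in cells numbered 57 or above. In the first set detected genes had medians of 10928.5 in NEUROG2-positive and 9904 in NEUROG2-zero cells, and the part of this in the shares was not tested. PHLDA1, ZSWIM4, CDC25B, NRP2, SP5, CTDP1, SAC3D1 and KIF23 completed the 10, at 68.2% to 95.5% of NEUROG2-positive and 41.9% to 69.8% of NEUROG2-zero cells. SP5 and KIF23 differed more in cells numbered 57 or above (37.5 and 30.4 points) than in cells numbered 56 or below (6.58 and 21.1 points). CDC25B, a cell cycle phosphatase, had medians of 14.3 and 0, and NRP2, a semaphorin receptor, 14.5 and 2.38. BHLHE40, SEMA3F, PROS1, NRIP3, BEND4, PKP2, ADCYAP1R1, RNF207, RCC1L and PEDS1 were read in fewer NEUROG2-positive cells, at 40.9% to 72.7% against 62.8% to 95.3%. PKP2, a desmosome protein, was read in 16 NEUROG2-positive and 41 NEUROG2-zero cells, with medians of 9.16 and 25.7. With many genes ranked and no replicate culture, these orders describe the 65 cells and nothing beyond them.

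SOX8, a factor of neural crest and glia, was read in 0 of 22 NEUROG2-positive cells, which allows a share of up to 13.6% by 3 cells of 22 (the exact interval reaches 15.4%), and in 11 of 43 NEUROG2-zero cells (25.6%, CI 13.5% to 41.2%). Its mean in NEUROG2-zero cells was 14.6-fold above a floor of 3 reads over the whole NEUROG2-positive group. That floor counts reads and not cells. The 11 NEUROG2-zero cells held 88 SOX8 reads, so 14.6-fold is no lower limit on the difference. The log2 ratios of SOX8 were -1.87 in cells numbered 56 or below and -1.85 in cells numbered 57 or above. Of the 8 neural crest genes that reached the mean of 1, TFAP2A, TFAP2B, ETS1 and NGFR were at least 2-fold higher and SOX8 at least 2-fold lower; each of these 5 had a mean below 1 in the other group, so it passed the limit on the mean only through the group where it was high. TFAP2A had 98 reads in 5 NEUROG2-positive cells, of which 88 were in cell 40. The summed level of the 10 crest genes was 0 to 135 with a median of 13.0 in NEUROG2-positive cells and 0 to 60.1 with a median of 8.24 in NEUROG2-zero cells. TFAP2B and ETS1 were each read in 2 NEUROG2-positive cells, and NGFR in 4. SOX8, TFAP2B, ETS1 and NGFR were named after their values were seen.

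Markers of other cell types and general genes mostly lay within 2-fold. The fibroblast list summed to medians of 443 in NEUROG2-positive and 425 in NEUROG2-zero cells, with THY1 at least 2-fold higher among the 8 genes that reached the mean. Of 15 listed pluripotency genes 4 reached the mean, with a median log2 ratio of -0.36, and POU5F1, the gene for OCT4, was at least 2-fold lower (mean 3.61 against 9.85); whether reads of the vector's human OCT4 and SOX2 were counted to the marmoset genes was not tested. POU5F1 was read in 36.4% of NEUROG2-positive and 37.2% of NEUROG2-zero cells, and its log2 ratio was 0.12 in cells numbered 56 or below. The 19 cell cycle genes that reached the mean lay within 2-fold with a median log2 ratio of -0.06, and the 11 housekeeping genes with a median of 0.06. Among 12 regional factors CRABP1 was past 2-fold, and none of 15 dorsoventral progenitor factors or 5 radial glia and astrocyte genes was. MESP1 was the single gene of the mesoderm and endoderm list to reach the mean, at a log2 ratio of 0.66.

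Within the 2 sets of cell numbers the medians of the neurogenic lists differed in size but not in direction. Single genes were less uniform. Only 4 of 6 proneural factors and 2 of 4 Notch ligands were higher in both sets. The same held for 8 of 13 proneural factor targets and 15 of 28 early neuron genes. In the 8 NEUROG2-positive and 19 NEUROG2-zero cells numbered 56 or below, the list medians were 2.02 for proneural factors, 1.63 for Notch ligands, 1.42 for proneural factor targets and 0.86 for early neuron genes. In the 14 NEUROG2-positive and 24 NEUROG2-zero cells numbered 57 or above, they were 1.44, 0.31, 0.32 and 0.12 in the same order of lists. Of the listed genes at least 2-fold higher in both sets, 4 were proneural factors, 1 was a Notch ligand (DLL1), 5 were proneural factor targets and 3 were early neuron genes. Several of these rested on few cells. In cells numbered 57 or above, NHLH1 and NHLH2 were each read in 1 NEUROG2-positive cell, cell 81, and INSM1 and KLHL35 in 2 each. Cell 81 also held the highest CNTN2, at 729. NEUROD4, NHLH1, NHLH2, INSM1, SRRM4, MYT1 and the early neuron gene KLHL35 passed the limit on the mean only through NEUROG2-positive cells. Over all genes 94 (0.691%) were at least 2-fold higher and 43 (0.316%) at least 2-fold lower in both sets. Depth was part of this comparison: NEUROG2-positive and NEUROG2-zero cells had medians of 393698 and 343643 reads among cells numbered 56 or below, and of 209482 and 208746 among cells numbered 57 or above. In the second set 7 of the 14 NEUROG2-positive cells had a single NEUROG2 read. The part of depth and of single reads in the smaller medians of that set was not tested.

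**Figure D5:**
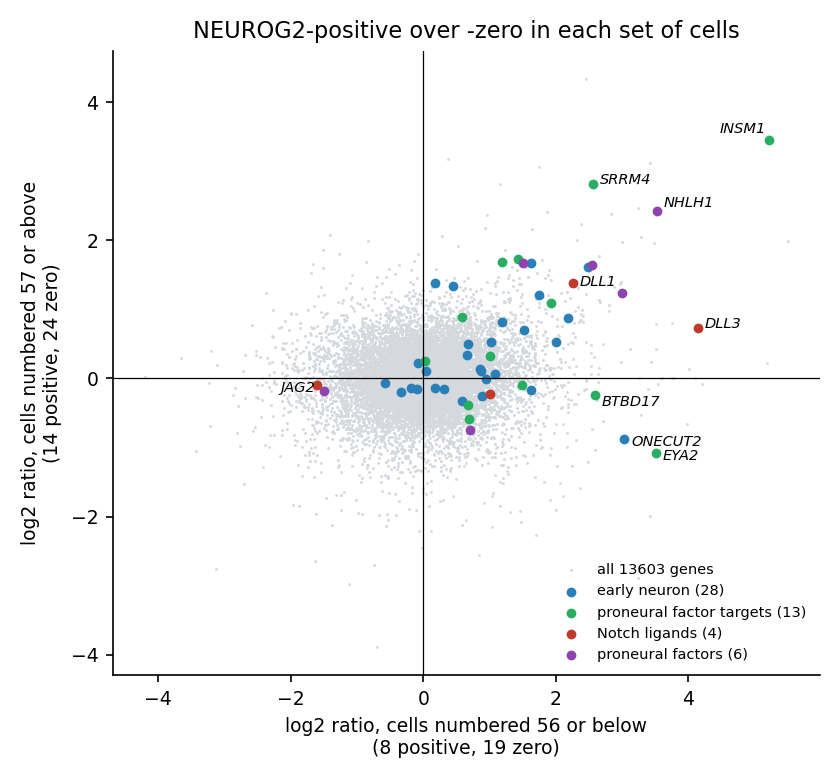
Log2 ratio of means (NEUROG2-positive over NEUROG2-zero) in iNSLCs numbered 57 or above (y axis, 14 and 24 cells) against that in iNSLCs numbered 56 or below (x axis, 8 and 19 cells), with 1 grey point for each of 13603 genes and coloured points for 4 neurogenic lists. INSM1, NHLH1, SRRM4 and DLL1 lie at least 2-fold higher in both sets, while BTBD17, ONECUT2 and EYA2 are higher in cells numbered 56 or below and lower in the others. In cells numbered 57 or above NHLH1 rests on 1 NEUROG2-positive cell and INSM1 on 2.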

How the data were processed

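Single-cell RamDA-seq values of 65 iNSLCs, 4 ESCs, 1 iPSC and 1 fibroblast were read from the authors' deposited table, whose signal is normalized counts with 1 factor per cell. The table holds 23561 named genes, and a nameless row, worth up to 0.449% of a cell, was dropped. Per the submitters' processing notes the tools were Seurat 3.0.0, featureCounts 1.5.1, STAR 2.6.0c and Trimmomatic, with no role stated. For the genome build and the annotation: not given in the sources used here. Dividing each cell's values by that of a single read gave whole reads (largest deviation 0.00113 reads), from which depth was counted.

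Computation used Python 3.11.15, numpy 2.4.6, pandas 2.3.3, scipy 1.17.1 and matplotlib 3.10.9. Ratios are log2 of group means after a pseudocount of 1, for genes with a mean of at least 1, and the steps were tested on simulated data. Shares at equal depth are the expected shares after thinning to 129629 reads, the 10th percentile of iNSLCs. No doublet caller was run on these sorted cells.

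The division by NEUROG2 and by cell number, and 19 lists of 300 genes (25 without a row in the table), were chosen with earlier results of these data known. Named genes are NEUROG2, members of the proneural factor, Notch ligand, receptor and target, proneural factor target and early neuron lists read in at least 5 iNSLCs (others by range and count), the 4 highest members of every other list, and the 10 with the largest log2 ratio or difference in share in each direction among genes (symbols not starting with LOC) with a mean of at least 10, reads in at least 17 iNSLCs and the same direction in both sets of cell numbers. NHLH1, NHLH2, NEUROD1, DLL4, EYA2, ZIC1, SOX8, NEURL1, NUMBL, SOX1, SOX2, SOX9, PAX6, NGFR, ETS1, TFAP2B and THY1 fall outside this rule and were named after their values were seen, as were the 5 cells with INSM1 reads. Alternatives were other pseudocounts, filters, scalings and divisions, medians over cells, and leaving out cells. A gene that meets the naming rule is not reported here.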

Additional observations from a re-analysis of the deposited data

How the results depend on the processing

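No test was made, so a value was compared with a 1.5-fold yardstick set by hand. With all cells there were 256 genes at least 2-fold higher in NEUROG2-positive iNSLCs and 184 genes at least 2-fold lower in NEUROG2-positive iNSLCs. These counts were 24 and 5 with a pseudocount of 10, 43 and 16 for genes with a mean of 10 or more, 896 and 357 with medians in place of means, and 1001 and 947 in cells numbered 56 or below. The higher count was 161 without the highest cell of each gene in each group, and the lower count was 290 after thinning, 303 with at least 2 NEUROG2 reads and 286 in cells numbered 57 or above. Leaving out each cell in turn gave 242 to 283 genes higher and 170 to 213 lower. The Notch ligand median was 0.29 with medians, 1.63 and 0.31 in the lower and upper cell numbers, 0.045 without the 5 cells with INSM1 reads, and 0.66 (without cell 57) to 1.08 with single cells left out. The proneural factor target median was 0.45 with a pseudocount of 10, 0 with medians, 0.32 in cells numbered 57 or above, 0.29 without the 5 cells, and 0.73 to 1.33 with single cells left out. The ranges with single cells left out were 0.34 to 0.54 for early neuron and 0.01 to 0.16 for neural stem cell genes. Without the 5 cells, an alternative chosen after seeing the data, the direction turned for the proneural factor (-0.11) and neuron subtype factor (-0.16) medians and for DCX (-0.23), SYP (-0.40), CNTN2 (-0.51), KLHL35 (-0.38), ONECUT2 (-1.24), LHX5 (-0.16), CRABP1 (-0.74), CDKN1C (-0.43), IGFBPL1 (-1.62), DCC (-0.19), NHLH1 (-0.22), DLL4 (-0.062) and EYA2 (-0.70). It also turned in cells numbered 57 or above for BTBD17 (-0.24), ONECUT2 (-0.87) and EYA2 (-1.08), in cells numbered 56 or below for POU5F1 (0.12), with medians for CNTN2 (-0.22) and APCDD1 (0.33), and without the highest cells for APCDD1 (0.19) and EYA2 (-0.10). With single cells left out APCDD1 ran from -1.50 to 0.33 (without cell 75) and EYA2 from -0.51 (without cell 40) to 1.97. Other than by the construction of each alternative, the cause was not tested. No paired analysis was possible because the groups are cells of 1 culture.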
